A study of Mus musculus with 44 samples.

Results

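Traj7 alpha chains were followed through the T cell receptor (TCR) repertoires of 44 B16 mouse melanomas. Their members were all CDR3s that end in SNNRLTL, the last residues that the joining gene Traj7 contributes to a CDR3. This rule took 813 of the 35230 distinct TRA CDR3s and 1987 of the 170818 entries, an entry being a CDR3 in a tumour. Traj7 was chosen by read counts of the same 44 tumours, in which it held far more of the alpha-chain reads than of the distinct alpha CDR3s. Its share of reads and the number of CDR3s that carry them are therefore given as a description, with no test.

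B16F10 cells, a melanoma line of C57BL/6 origin, had been injected under the skin of the back of C57BL/6 mice (C57BL/6J in the methods), genotype WT, and 100 ug of bulk tumour was taken on day 12. Vehicle was the label of 14 tumours (the methods call them untreated), 15 had received anti-PD-1, an antibody against a checkpoint receptor of T cells, and 15 AC484, an inhibitor of the phosphatases PTPN2 and PTPN1. Each tumour gave 1 library of TRA and TRB transcripts. TRA reads numbered 1466 to 24129 in the vehicle tumours, 10432 to 108156 with anti-PD-1 and 18508 to 315679 with AC484, and distinct TRA CDR3s 72 to 889, 538 to 2038 and 1153 to 4805. TRA depth thus moved with treatment. The libraries carried 4 index primer sets, of which set 1 held 12 vehicle tumours, set 2 held 2 vehicle and 10 anti-PD-1 tumours, set 3 held 5 anti-PD-1 and 7 AC484 tumours and set 4 held 8 AC484 tumours. TRA depth also moved with the set. The mean TRA part of all reads was 18.1% in vehicle tumours of set 1 and 4.49% in those of set 2. With anti-PD-1 it was 6.61% in set 2 and 30.8% in set 3, and with AC484 30.3% in set 3 and 29.7% in set 4. Anti-PD-1 tumours had a median of 18580 TRA reads in set 2 and 59111 in set 3, with medians of 1218 and 1104 distinct TRA CDR3s. In bulk tissue, fewer T cells and less TCR RNA per cell cannot be told apart, and a read is neither a cell nor a counted molecule.

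A TCR alpha chain is assembled in the thymus by joining 1 of many V genes to 1 of many J genes, with bases trimmed and added at the joint. The stretch across that joint, CDR3, meets the peptide that a T cell recognises. CDR3s that need few added bases arise often, so they recur between individuals and are called public. Alpha chains can rearrange repeatedly along the locus, from the J genes nearest the V genes to those nearest the constant region.

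Traj7 lies near the constant-region end of the locus, as number 46 of 51 J genes annotated as functional, at chr14:54211470-54211528 on the plus strand of GRCm38. Its 59 bases are shown because every member carries a stretch of them. Capitals mark the codons for SNNRLTL.

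Traj7, GRCm38: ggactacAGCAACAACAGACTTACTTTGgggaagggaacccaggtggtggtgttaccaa

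In germline reading frame the segment gives a CDR3 the 9 residues DYSNNRLTL. The CDR3 ends in leucine where most J genes encode phenylalanine or tryptophan. The rule did not use the 2 germline residues before SNNRLTL, and they matched the label: 476 CDR3s (58.5%) kept both D and Y, 250 kept the tyrosine alone and 87 kept neither. CDR3s that kept both held 92.1% of the Traj7 reads. At the edge of the rule, 37 CDR3s ended in RLTL after a shorter match, with 133 reads in all and at most 26 reads in a tumour, while the median entry inside the rule had 6 reads.

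The CDR3s that carry most of what follows are shown here, as the 10 of at most 14 residues among those with the most reads or in the most tumours. Residues are in capitals and read from the first cysteine.

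K form: CAAKDYSNNRLTL
S form: CAASDYSNNRLTL
T form: CAATDYSNNRLTL
E form: CAAEDYSNNRLTL
R form: CAARDYSNNRLTL
14 residues: CALSEDYSNNRLTL
14 residues: CATVPDYSNNRLTL
14 residues: CALREDYSNNRLTL
no germline D or Y: CAVSIHSNNRLTL
14 residues: CALKGDYSNNRLTL

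The first 5 differ at residue 4 alone. They were printed together because this frame, CAA, any residue and DYSNNRLTL, stood out after the values were seen.

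Traj7 held 26.3% of all TRA reads (484767 of 1841575) and 2.31% of the distinct TRA CDR3s, a ratio of 11.4. The other 42 TRAJ genes had ratios between 0.175 and 3.51, with a median of 0.567. Traj17 followed with 9.47% of the reads and a ratio of 3.51, and 83.0% of its reads belonged to 1 CDR3. Traj7 was the TRAJ gene with the most reads in 29 of 44 tumours, and among the first 3 in 41. By number of distinct CDR3s it ranked 19th of 43 over the series, where a CDR3 found in several tumours counts once. Within tumours its median rank by that number was 2 in vehicle, 7 in anti-PD-1 and 11 in AC484 tumours. It ranked 1st in 7 of 44 tumours, of which 6 were vehicle. The ratio of 11.4 is pooled in the same way, and its mean over tumours was 6.23.

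**Figure D1:**
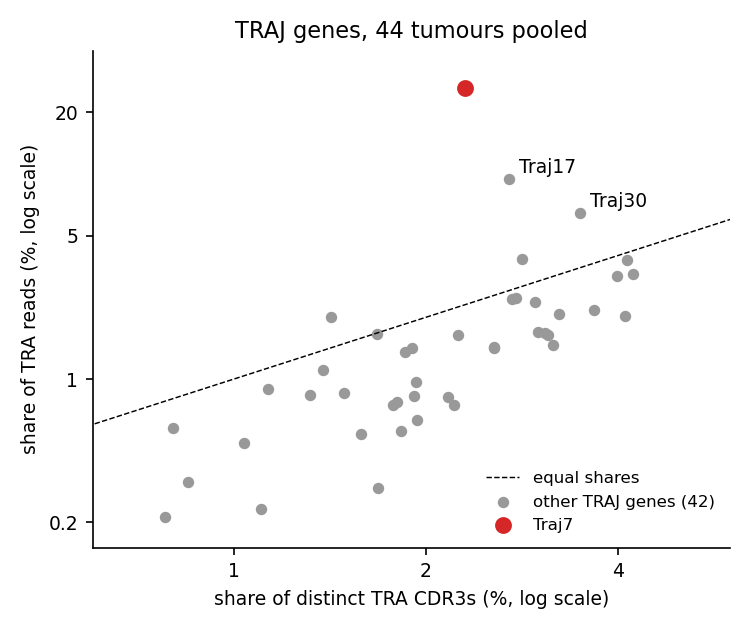
Share of TRA reads (vertical, %, log scale) against share of distinct TRA CDR3s (horizontal, %, log scale) for 43 TRAJ genes, 44 tumours pooled; the dashed line marks equal shares. Traj7, at 2.31% of the CDR3s and 26.3% of the reads, sits above the other 42 genes.

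The excess of reads was present in all treatment groups. In vehicle tumours Traj7 took 2.24% of the TRA reads in the lowest, 16.5% in the median and 55.0% in the highest tumour. With anti-PD-1 these shares were 5.14%, 26.7% and 55.2%. With AC484 they were 8.94%, 20.7% and 47.2%. The ranges overlapped widely. The lowest share, in vehicle replicate 1, had an exact binomial 95% interval of 2.00% to 2.49% of 14808 reads, and the highest, in anti-PD-1 replicate 15, one of 54.8% to 55.6% of 59111 reads. These intervals cover counting error only.

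In 41 of 44 tumours the share of reads exceeded the share of distinct CDR3s, and the 3 exceptions were vehicle replicates 1, 2 and 5. The ratio of the 2 shares had medians of 3.14 in vehicle, 7.37 in anti-PD-1 and 6.75 in AC484 tumours. Its denominator, the share of distinct CDR3s, moved with depth. With each tumour drawn to 1466 TRA reads, the mean shares of reads and of distinct CDR3s were 21.0% and 7.31% in vehicle tumours. They were 27.1% and 5.99% with anti-PD-1 and 22.6% and 5.73% with AC484. Within index set 3, Traj7 held 31.2% to 55.2% of the TRA reads in the 5 anti-PD-1 tumours and 13.0% to 31.8% in the 7 AC484 tumours. Within set 2 it held 11.0% and 55.0% in the 2 vehicle tumours and 5.14% to 45.0% in the 10 anti-PD-1 tumours.

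**Figure D2:**
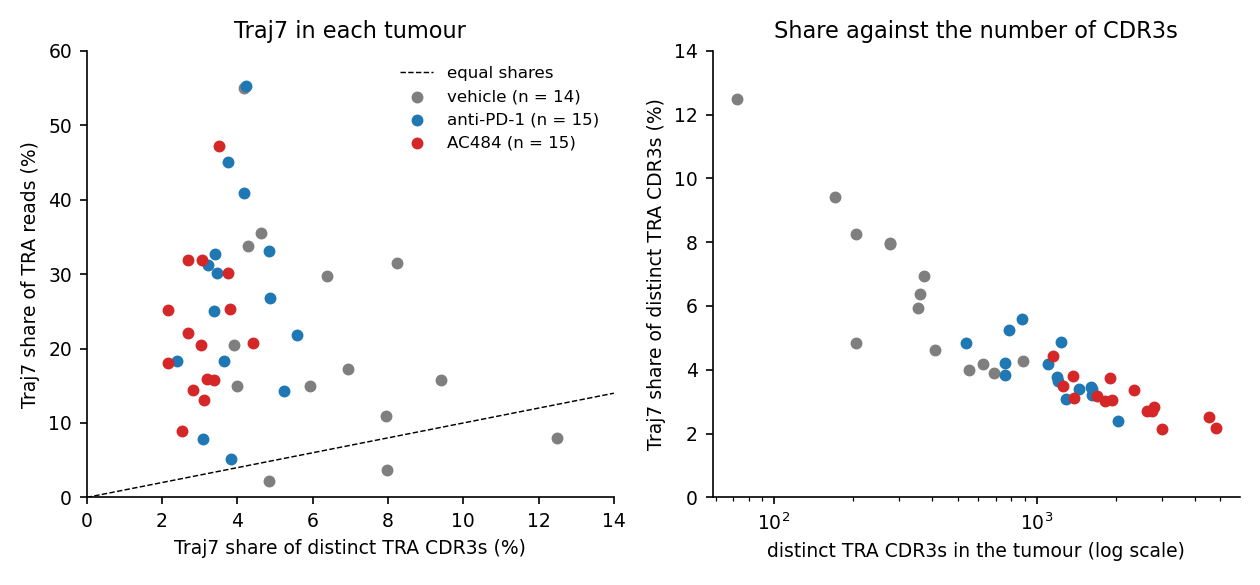
Left, Traj7 share of TRA reads against its share of distinct TRA CDR3s (both %), 1 point per tumour, dashed line at equal shares; 41 of 44 tumours lie above it. Right, the share of distinct CDR3s (%) against the number of distinct TRA CDR3s (log scale); the share was 12.5% in the tumour with 72 CDR3s and between 2.16% and 4.42% in the AC484 tumours.

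Few CDR3s carried the Traj7 reads. Over the series the first 3 CDR3s were enough for 50% of them and the first 10 held 67.2%, in a gene with 813. Without AC484 replicate 4, which gave 100491 of the 484767 Traj7 reads, 6 were needed for 50% and the first 10 held 59.5%. The other TRAJ genes needed between 1 and 42 CDR3s for 50% of their reads, with a median of 9, so some of them were as concentrated. Within single tumours, the largest Traj7 CDR3 took 17.3% to 93.3% of the Traj7 reads. It took over 50% in 8 of 14 vehicle, 6 of 15 anti-PD-1 and 5 of 15 AC484 tumours. The number of CDR3s that reached 50% ranged from 1 to 3 in vehicle tumours and from 1 to 4 in both treated groups. A Traj7 CDR3 had the most reads of any TRA CDR3 in 4 vehicle, 10 anti-PD-1 and 5 AC484 tumours.

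**Figure D3:**
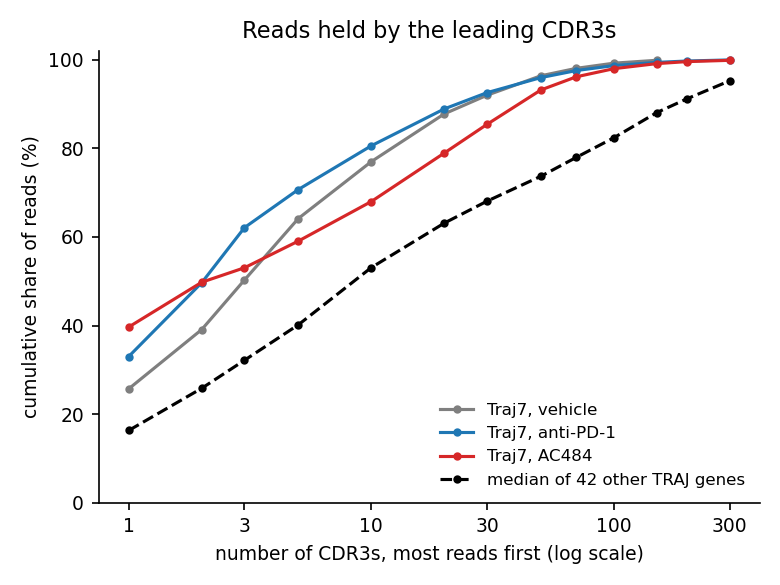
Cumulative share of reads (%) against the number of CDR3s counted from the one with the most reads (log scale), for Traj7 pooled within each treatment and, dashed, the median over the 42 other TRAJ genes, 44 tumours pooled. The first 10 Traj7 CDR3s held 77.0% of the reads in vehicle, 80.6% in anti-PD-1 and 68.0% in AC484 tumours (51.9% without AC484 replicate 4), against a median of 53.1% in the other genes.

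The K form was the Traj7 CDR3 with a read in the most tumours, 41 of 44 (13 vehicle, 13 anti-PD-1 and 15 AC484). Without counts under 1% of a CDR3's largest count it was left in 14 tumours, fewer than the 19 of the S form. That limit follows the largest count, which was 93804 for the K form and 20669 for the S form. Measured against each tumour's own Traj7 reads, the K form reached 1% in 37 tumours and the S form in 29. The K form held 142199 reads, 29.3% of Traj7 (12.6% without AC484 replicate 4). Its share of a tumour's Traj7 reads was 0% in the lowest, 4.65% in the median and 86.1% in the highest vehicle tumour. With anti-PD-1 the shares were 0%, 5.78% and 81.4%, and with AC484 0.702%, 10.5% and 93.3%. The groups overlapped over nearly their whole range. AC484 replicate 4 alone gave 93804 of the reads, 66.0% of them, and the exact 95% interval of its share there was 93.2% to 93.5%. In the 3 tumours without a read of it (vehicle 4, anti-PD-1 8 and anti-PD-1 10), a count of 0 allows up to 0.0903%, 0.0604% and 0.0740% of their Traj7 reads.

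The S form was found in 37 tumours (8 vehicle, 14 anti-PD-1 and 15 AC484) and held 87468 reads, 18.0% of Traj7. Its share of Traj7 reads had a median of 0.671% in vehicle tumours and reached 54.3% in the highest. The median was 9.34% with anti-PD-1, where the highest tumour had 76.3%, and 6.10% with AC484, where the highest had 68.1%. The tumours without a read of it were vehicle 1, 3, 7, 8, 10 and 11 and anti-PD-1 3. A count of 0 allows up to 0.0833% and 0.0662% of the Traj7 reads in vehicle 3 and 7, and 0.202% to 0.993% in the other 5. At least 1 of the 2 forms was present in every tumour, and both were present in 34. In places this rested on very few reads: vehicle 10 held 2 of the K form and 0 of the S form, and vehicle 14 held 1 of the S form. The K form was above the S form in 10 of 14 vehicle, 6 of 15 anti-PD-1 and 11 of 15 AC484 tumours. Pooled, the anti-PD-1 tumours held more reads of the S than of the K form (56278 against 21173). Most of these S reads came from replicates 12, 14 and 15, with 10211, 19042 and 20669, all in index set 3. In the anti-PD-1 tumours of set 2 the largest counts were 5557 of the K form (replicate 2) and 2157 of the S form (replicate 5). In the pooled AC484 tumours the order rested on replicate 4: the K form had 114302 reads against 29121 with it, and 20498 against 28605 without it.

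**Figure D4:**
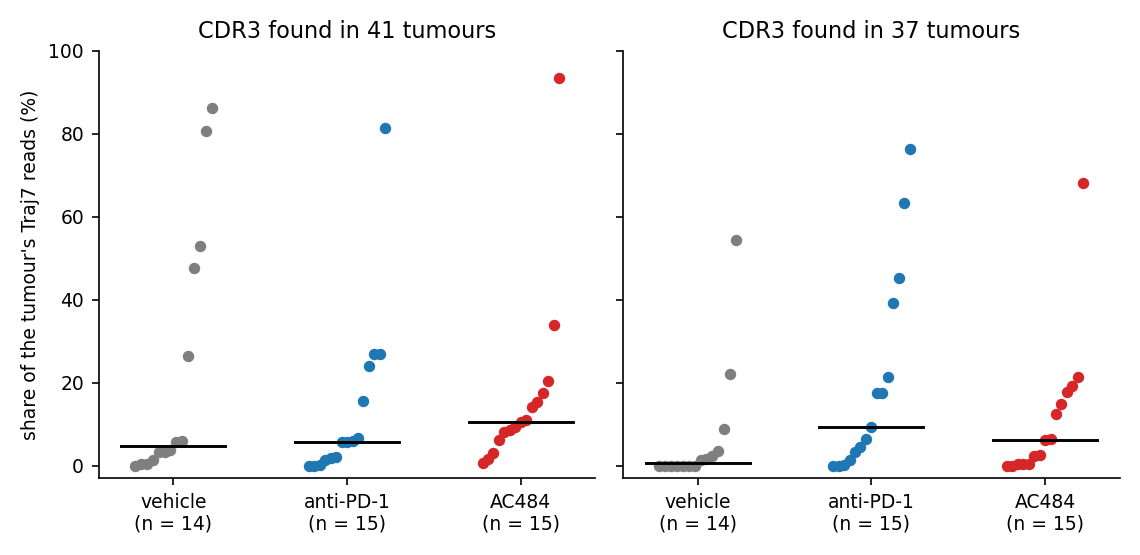
Share of each tumour's Traj7 reads (%) taken by the K form (left, in 41 tumours) and the S form (right, in 37 tumours), 1 point per tumour, sorted within each treatment; the line marks the median. In each group most tumours lie below 30% and 1 to 4 tumours lie above 40%.

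The K and S forms belong to a set of near-identical chains. CDR3s of 13 residues with the frame CAA, any residue and DYSNNRLTL were seen with 14 different residues at position 4. Some were rare, with 82 reads for P, 47 for I and 2 for D. CDR3s of this frame made up 1.72% of the distinct Traj7 CDR3s and 57.4% of the Traj7 reads, and at least 1 of them was found in each of the 44 tumours. The frame took a median of 33.5% of the Traj7 reads in vehicle, 50.8% in anti-PD-1 and 38.1% in AC484 tumours, with lowest values of 1.61%, 6.61% and 4.95% and highest values of 91.0%, 92.8% and 94.5%. After K and S came T with 13945 reads in 21 tumours, E with 10610 in 16 and R with 8424 in 17. The T form had its largest count, 8174 reads, in AC484 replicate 8 and made up 84.0% of that tumour's Traj7 reads. The R form made up 59.7% in anti-PD-1 replicate 8, a tumour with no read of the K form. A CDR3 of this frame had the most Traj7 reads in 22 of 44 tumours (6 vehicle, 8 anti-PD-1 and 8 AC484), with 7 different residues at position 4, and a CDR3 outside the frame in the other 22. Without AC484 replicate 4 the frame held 47.8% of the Traj7 reads. Near-copies were entries 1 substitution away from a CDR3 with at least 100 times their count in the same tumour. With near-copies left out, the frame was still found in 44 tumours and the K form in 41, but the S form in 31. Traj7 CDR3s in at least 10 tumours then numbered 30 in place of 39, and other TRA CDR3s 361 in place of 379.

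Germline V genes encode some of these residues. Of 104 Trav genes whose germline CDR3 start could be read, 26 begin it with CAA. Serine follows in 19 of these, glutamate in 6 and glycine in 1, and lysine in none. The deposited table gives no V gene, so V genes were not assigned to the CDR3s. By their first 3 residues, CAA chains were 21.5% of the distinct Traj7 CDR3s and held 63.0% of the reads, while CAV chains were 25.0% with 18.0% and CAL chains 22.1% with 11.3%. Among all other TRA CDR3s, CAA chains were 26.9% of the distinct CDR3s and 27.9% of the reads.

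Other leading CDR3s were of another kind. CAVSIHSNNRLTL, which keeps neither germline D nor Y, had 28525 reads, of which 28372 (99.5%) came from anti-PD-1 replicate 11. There it was 80.4% of the Traj7 reads. It was found in 8 other tumours, and in vehicle replicate 13 it also led Traj7, with 124 of 372 reads (33.3%). Only 2 of the 44 tumours held at least 0.1% of its largest count. CALKGDYSNNRLTL was found in 3 AC484 tumours, with 8927 of its 8930 reads in replicate 13. By contrast CATVPDYSNNRLTL, in 21 tumours, never exceeded 469 reads or 5.23% of a tumour's Traj7 reads. CALSEDYSNNRLTL was found in 23 tumours with 6321 reads and CALREDYSNNRLTL in 18 with 9017. A CDR3 of 15 residues, not printed, was the remaining one of the 10 with the most reads, with 10178 reads in 17 tumours.

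Traj7 had the highest share of recurring CDR3s among the TRAJ genes. Of the 813, 287 (35.3%) were found in at least 2 tumours, against 14.9% to 31.7% in the other 42 genes. At least 10 tumours shared 39 of them (4.80%), against 0% to 3.36% in the other genes and 1.10% of all other TRA CDR3s. By number, Traj22 had more such CDR3s, 49. The 39 of Traj7 all kept the germline D and Y and held 71.0% of the Traj7 reads, and 34 of them were found under all 3 treatments. Of the 526 CDR3s seen in 1 tumour, which held 2.59% of the reads, 48.3% kept both residues. These are descriptions, since tumours with more CDR3s share more of them.

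Within single tumours the share of Traj7 CDR3s that were found in another tumour was 78.5% ± 9.95 (SD, n = 14) in vehicle, 74.0% ± 5.22 (n = 15) in anti-PD-1 and 72.3% ± 7.06 (n = 15) in AC484 tumours. It exceeded the share for the other TRA CDR3s of the same tumour in 43 of 44 tumours. The treatment groups overlapped, and none of the 3 differences passed the two-sided permutation test (100000 resamples, Benjamini-Hochberg over 9 tests). AC484 minus vehicle was −6.19 percentage points (SE 3.22, adjusted p = 0.566), anti-PD-1 minus vehicle −4.46 (SE 2.98, adjusted p = 0.630) and AC484 minus anti-PD-1 −1.74 (SE 2.27, adjusted p = 0.773). Next, 10 Traj7 CDR3s were drawn from each tumour, so that number no longer differed. Sharing was then counted among the drawn CDR3s alone, averaged over 100 draws, which is another measure than the one above. These shares were 58.4% ± 9.73 in 13 vehicle, 52.3% ± 6.72 in anti-PD-1 and 49.2% ± 5.12 in AC484 tumours. AC484 minus vehicle was then −9.21 percentage points and passed the permutation test (adjusted p = 0.0197). This draw left the TRA reads unequal, at 1466 to 24129 in vehicle and 18508 to 315679 in AC484 tumours. No index set held both groups, so treatment, depth and set cannot be told apart in this difference. In the measure before the draw, anti-PD-1 minus vehicle was −13.3 points within index set 2. AC484 minus anti-PD-1 was 1.74 within set 3, and neither passed an exact permutation test (adjusted p = 0.283 and 0.773).

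Reads of an abundant CDR3 can appear at a low level in other libraries of the same run. When counts below 1% of a CDR3's largest count in any tumour were left out, the frame was left in 38 tumours. The number of Traj7 CDR3s in at least 10 tumours then fell from 39 to 14, and that of the other TRA CDR3s from 379 to 311. The share found in at least 2 tumours fell from 35.3% to 31.7% in Traj7 and from 25.1% to 24.4% in the other TRA CDR3s. Much of the lead of Traj7 in widely shared CDR3s thus went with counts below this limit. The limit was a raw count, not scaled to the depth of a tumour. For the K form it was set by the 93804 reads of AC484 replicate 4. It left out the K form in vehicle 1, with 267 reads (80.7% of its Traj7 reads), and in vehicle 6, with 622 (47.6%). Counts below the limit are therefore not all low within their tumour. At a limit of 0.1%, the K form was left in 31 tumours, the S form in 29, the frame in 42, and 35 CDR3s in at least 10 tumours.

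No difference in the length of Traj7 CDR3s between treatments exceeded the spread between tumours. Their mean was 13.77 residues ± 0.177 (SD, n = 14) in vehicle, 13.71 ± 0.151 (n = 15) in anti-PD-1 and 13.73 ± 0.0903 (n = 15) in AC484 tumours. The differences were −0.06 residues for anti-PD-1 minus vehicle, −0.04 for AC484 minus vehicle and 0.02 for AC484 minus anti-PD-1, each with an adjusted p of 0.773 in the permutation test. Distinct CDR3s were most often of 14 residues (42.2%), followed by 13 (24.5%) and 15 (21.3%). Reads lay elsewhere: CDR3s of 13 residues held 66.6% of them and those of 14 residues 20.6%. No Traj7 CDR3 was longer than 16 residues, and 13 had that length.

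**Figure D5:**
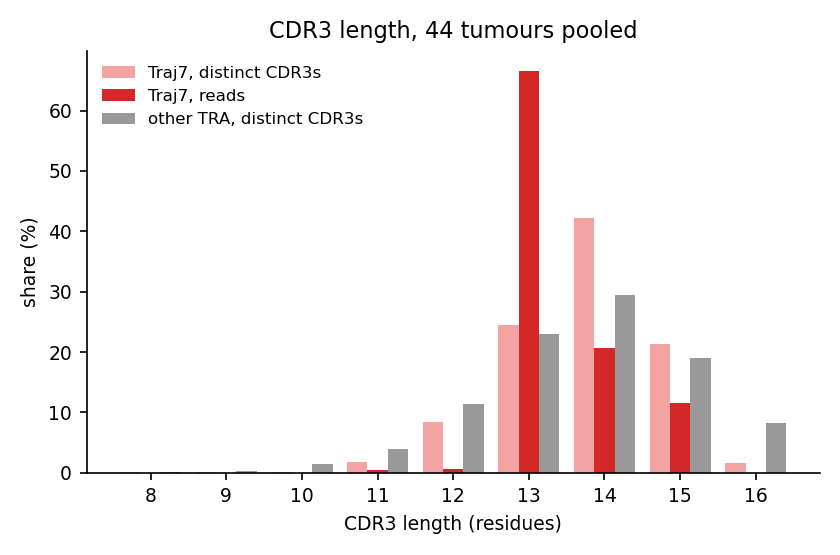
Share (%) of distinct Traj7 CDR3s, of Traj7 reads and of distinct other TRA CDR3s at each CDR3 length in residues, 44 tumours pooled; other TRA CDR3s longer than 16 residues are not drawn. Traj7 reads peak at 13 residues (66.6%) and distinct Traj7 CDR3s at 14 (42.2%).

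Nor did the retention of the germline tyrosine differ beyond that spread. It was kept by 95.4% ± 5.67 (SD, n = 14) of the distinct Traj7 CDR3s in vehicle, 95.0% ± 3.55 (n = 15) in anti-PD-1 and 94.5% ± 1.94 (n = 15) in AC484 tumours. AC484 minus vehicle was −0.941 percentage points, and the permutation test gave adjusted p between 0.773 and 0.803 over the 3 comparisons. The share that kept both D and Y, given with no test, had medians of 84.4% in vehicle, 76.1% in anti-PD-1 and 74.4% in AC484 tumours.

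The number of Traj7 CDR3s rose less with treatment than the number of all TRA CDR3s. Vehicle tumours held 9, 22 and 38 distinct Traj7 CDR3s in the lowest, median and highest tumour, anti-PD-1 tumours 26, 46 and 60, and AC484 tumours 43, 65 and 115. As a share of the distinct TRA CDR3s they were 6.51% ± 2.51 (SD, n = 14), 3.94% ± 0.874 (n = 15) and 3.09% ± 0.620 (n = 15). The lowest vehicle tumour (3.91%) lay below the highest tumour of both other groups (5.58% and 4.42%). In edgeR's quasi-likelihood test over 43 TRAJ genes, with Benjamini-Hochberg adjustment, Traj7 was lower in AC484 than in vehicle tumours by a log2 difference of −0.91 ± 0.119 (SE, adjusted p = 6.7e-11). It was lower in anti-PD-1 than in vehicle tumours by −0.53 ± 0.121 (adjusted p = 0.00097) and lower in AC484 than in anti-PD-1 tumours by −0.38 ± 0.0876 (adjusted p = 0.0011). The test called 9.3% of the TRAJ genes in AC484 against vehicle, 2.33% in anti-PD-1 against vehicle and 9.3% in AC484 against anti-PD-1. Those called lower in the group named first were 6.98%, 2.33% and 6.98% of the genes. The difference of Traj7 was the largest of the 43 in each comparison. The distinct CDR3s counted here were also 1 side of the comparison by which Traj7 was chosen, and their number moved with depth. The rank, the differences and their adjusted p-values are therefore given as a description.

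These differences shrank when the number of TRA reads was made equal. With each tumour drawn to 1466 TRA reads, the depth of the shallowest, Traj7 was 7.31% ± 2.62 of the distinct TRA CDR3s in vehicle, 5.99% ± 1.90 in anti-PD-1 and 5.73% ± 1.58 in AC484 tumours. The log2 differences by edgeR were then −0.21 for AC484 against vehicle (adjusted p = 0.743), −0.16 for anti-PD-1 against vehicle (adjusted p = 0.666) and −0.047 for AC484 against anti-PD-1 (adjusted p = 0.912). The draw equalised TRA reads alone: the drawn reads held 225 ± 103 (SD) distinct TRA CDR3s in vehicle, 329 ± 58.8 in anti-PD-1 and 347 ± 92.4 in AC484 tumours. The share of distinct CDR3s was thus lower in treated tumours at the deposited depth, and no difference was detectable at an equal number of TRA reads.

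No index set held both AC484 and vehicle tumours. With the set as a block, the log2 differences were of similar size, at −0.90 for AC484 against vehicle, −0.50 for anti-PD-1 against vehicle and −0.39 for AC484 against anti-PD-1, and none passed (adjusted p = 0.236, 0.602 and 0.108 by edgeR). Within set 2 anti-PD-1 against vehicle was −0.58 (adjusted p = 0.216) and within set 3 AC484 against anti-PD-1 was −0.40 (adjusted p = 0.0673), each in edgeR over the 43 genes. Without low counts under 1% of a CDR3's largest count, anti-PD-1 against vehicle was −0.39 and no longer passed (adjusted p = 0.123).

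No other TRAJ gene followed Traj7 closely over the tumours. By Spearman correlation of the shares of distinct TRA CDR3s over 44 tumours, the most alike were Traj15 (0.58), Traj13 (0.34) and Traj18 (0.32). The shares come from the same libraries, sum to a whole and move with depth. Traj15 held 3.08% of the distinct TRA CDR3s and 1.67% of the reads. Its read shares did not go with those of Traj7, at a correlation of −0.19.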

How the data were processed

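Bulk tumour RNA was profiled with a kit that captures complete TCR alpha and beta variable regions and sequenced on a MiSeq. The authors reconstructed amino-acid clonotypes with MiXCR, and the submitters' notes name mm10. The deposited table gives, for each tumour and CDR3, a read count (raw counts, not equalised for depth) without V or J gene, nucleotide sequence or molecular identifiers. Its proportion column was not used.

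Chain and J gene were inferred from the last residues of each CDR3, which had to share 4 or more with a germline ending of the 45 Traj and 12 Trbj genes read from RefSeq GRCm38.p6, the longest match winning. Of the TRA entries, 99.1% had 1 J gene. Traj7 was the ending SNNRLTL alone. Distinct CDR3s per TRAJ gene with at least 100 CDR3s were tested with edgeR 4.0.16 (TMM, quasi-likelihood, all 44 tumours in 1 fit). DESeq2 1.42.0 was an alternative. Length, sharing and tyrosine retention were tested by two-sided permutation with 1 value per tumour (tumours with at least 5 Traj7 CDR3s, which all had). The resampling used numpy 2.4.6, and the exact tests of smaller groups used scipy 1.17.1. Scripts were tested on simulated data.

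The members, lists and tests were chosen with earlier results of these data known. Named CDR3s were the 10 with the most reads, the 5 in the most tumours and the leader of each group, and those over 14 residues were not printed. Named genes were the 3 most correlated with Traj7. Each tumour came from its own animal.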

Additional observations from a re-analysis of the deposited data

How the results depend on the processing

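The ratio of the Traj7 share of reads to its share of distinct CDR3s was 11.4 pooled, 6.23 as a mean over tumours and 6.87 without the K and S forms (a setting chosen after seeing the data), and it moved by less than the spread between tumours in the other 6 settings. Without AC484 replicate 4, a setting also chosen after seeing the data, 6 CDR3s in place of 3 held 50% of the Traj7 reads. For the number of distinct Traj7 CDR3s relative to all TRAJ genes, 28 of 41 values kept direction and call. With the replicate block the log2 differences were −0.94, −0.37 and −0.57 (AC484 against vehicle, AC484 against anti-PD-1 and anti-PD-1 against vehicle, here and below), and it changed no call. The numbers do not pair the tumours: deviations of same-numbered tumours correlated above 0.1 in 3 of 14 or 15 pairs of each comparison. Reads in place of distinct CDR3s, by which the gene was chosen, gave −0.00055, 0.024 and −0.024, as values with no test, and the draw to equal TRA reads −0.21, −0.047 and −0.16. Index set as a block gave −0.90, −0.39 and −0.50, and no call passed (adjusted p 0.236, 0.108 and 0.602). Within index set 2, anti-PD-1 against vehicle was −0.58, and within set 3 AC484 against anti-PD-1 was −0.40 (neither passed). Anti-PD-1 against vehicle missed the threshold at −0.39 without counts under 1% of a CDR3's largest count and at −0.38 without the 5 tumours under 5000 TRA reads, all vehicle, a setting chosen after seeing the data. Genes called ranged from 0 to 6 over the settings tested. Leaving out each tumour gave −0.98 to −0.86, −0.44 to −0.33 and −0.59 to −0.47, with every call kept. The causes of these changes were not tested beyond what each setting's construction shows.

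For the share of CDR3s found in another tumour, AC484 against vehicle passed the threshold at −9.21 percentage points with 10 CDR3s drawn and at −9.34 without the 5 shallow tumours (adjusted p 0.0197 and 0.0342). The draw counted sharing among the drawn CDR3s alone, and neither setting equalised the TRA reads. AC484 against anti-PD-1 reversed, uncalled, to 0.890 without single-read CDR3s and to 1.74 within index set 3. For tyrosine retention the same comparison reversed to 0.290 without single-read CDR3s, and anti-PD-1 against vehicle to 4.17 within index set 2, which holds 2 vehicle tumours. Within replicate blocks, the paired differences were −0.04, 0.02 and −0.06 residues in length, −5.15, −1.74 and −4.30 points in sharing and −0.973, −0.497 and −0.134 points in tyrosine retention. Leaving out each tumour gave −0.07 to −0.02, 0.0052 to 0.05 and −0.09 to −0.04 residues, −7.96 to −5.13, −2.55 to −0.675 and −6.22 to −3.39 points in sharing, and −1.99 to −0.588, −0.876 to −0.137 and −1.49 to −0.065 points in retention, with no call gained. Depth limits the vehicle tumours most, with as few as 72 distinct TRA CDR3s and 1466 TRA reads.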
